A study of Mus musculus with 9 samples.

Results

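Guidance genes encode the secreted and membrane-bound cues, and the receptors for them, that steer axons and blood vessels. The semaphorin, plexin, ephrin, Eph receptor, Slit, Robo, netrin and Unc5 families were taken by gene symbol from the probe annotation of the array, and 67 of the 18193 genes measured belonged to them. They comprised 20 semaphorins, 9 plexins, 8 ephrins, 13 Eph receptors, 3 Slits, 4 Robos, 6 netrins and 4 Unc5 receptors. Each gene is given by its brightest probe set over all 9 arrays, as a normalized log2 value, so that a difference of 1 is a 2-fold difference; values of different genes come from different probes, so they give no order of expression between genes, and a gene called the brightest of its family is only the one with the highest probe set value.

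The RNA came from endothelial cells (ECs) sorted out of whole lungs of NSG mice, a strain without functional T, B or natural killer cells, which were 6 to 8 weeks old at injection and, per the methods, female. In the metastatic DC101 group, MDA-MB-231-LM2 cells, a lung-tropic derivative of a human breast cancer line, had been given by tail vein, and the mice then received DC101, a blocking antibody against VEGF receptor 2, at 40 mg/kg on days 21 and 24. The metastatic IgG group had the same cancer cells and control rat IgG on the same days, and lungs of both groups were taken on day 25. Per the paper, the metastatic mice analysed had been picked for similar lung metastatic load by bioluminescence. The healthy IgG group held age-matched mice without cancer cells that received rat IgG. All groups therefore shared the strain and an injected rat antibody, and 1 cancer cell line stands for metastasis here. Each group had 3 arrays that the labels call biological replicates; nothing states whether 1 array is 1 mouse or several, so p-values measure the spread between these samples.

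Sorting took CD31+ cells and, per the methods, left out cells positive for CD45, CD11b, EpCAM, CD140a, CD140b or the GFP of the cancer cells. Pecam1, which encodes CD31, averaged 14.16 ± 0.08 in metastatic DC101, 14.13 ± 0.05 in metastatic IgG and 14.12 ± 0.02 in healthy IgG ECs (SD, n = 3 each), and the mean of 10 pan-endothelial markers lay between 13.48 and 13.59 on every array. Markers of other states did move. The mean of 5 genes of dividing cells was 9.77 to 10.94 in DC101, 10.56 to 11.53 in metastatic IgG and 7.44 to 7.90 in healthy ECs, and that of 6 lymphatic EC markers was 10.72 to 11.27, 11.09 to 11.23 and 9.64 to 10.26 in the same order. Arrays of a group correlated at 0.983 to 0.987 in DC101, 0.988 to 0.989 in metastatic IgG and 0.988 to 0.991 in healthy ECs, across genes, which are not independent replicates. In the first 3 principal components, healthy arrays separated from the metastatic ones on the first, and metastatic DC101 replicates 3 and 1 stood farthest out on the next pair. The mean of 5 mesothelial markers was 7.65, 7.94 and 9.02 on DC101 replicates 1, 2 and 3. It was 7.44 to 8.13 in metastatic IgG and 7.41 to 8.29 in healthy ECs, and its part in the results was not tested. The 3′ minus 5′ difference of the Gapdh control probe sets, a sign of RNA integrity and amplification, was 0.35 to 0.60 in DC101, 0.47 to 0.57 in metastatic IgG and 0.69 to 0.77 in healthy ECs; its part in the results was not tested.

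Semaphorins signal through plexins. The secreted class 3 members mostly need a neuropilin as co-receptor, while the membrane-bound classes bind plexins directly. Ephrins are tethered to the cell surface and bind Eph receptor tyrosine kinases on neighbouring cells, and in blood vessels ephrin-B2 marks arteries and EphB4 marks veins. Slits bind Robo receptors, and netrin-1, encoded by Ntn1, binds Dcc and Unc5 receptors. The genes counted as netrins also include Ntng1 and Ntng2, which this does not cover. Robo4 and Unc5b are the members of the Robo and Unc5 families best known from ECs.

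Of the 67 genes, 5 were higher in metastatic IgG than in healthy ECs and passed the test whichever array was left out: Sema3a, Sema5b, Sema7a, Unc5b and Plxnb2. Without variance moderation Sema3a (adjusted p = 0.075) and Sema5b (adjusted p = 0.0967) did not pass. Plxna1, which was lower in metastatic IgG ECs, also passed whichever array was left out, but it had no promoter window. The 250 bases before the start of each of the 5 higher genes are shown, in genome build GRCm38.p6 from RefSeq, because these genes moved in the same direction. The windows are chr5:13396534-13396783 on the plus strand for Sema3a, chr16:35541112-35541361 on the plus strand for Sema5b, chr9:57939862-57940111 on the plus strand for Sema7a and chr10:60831582-60831831 on the minus strand for Unc5b. Plxnb2, on the minus strand, has 2 annotated starts, with windows at chr15:89173952-89174201 (inner) and chr15:89180789-89181038 (outer). Each is written 5′ to 3′ along the gene, and capitals mark every match to a searched motif on either strand.
Sema3a: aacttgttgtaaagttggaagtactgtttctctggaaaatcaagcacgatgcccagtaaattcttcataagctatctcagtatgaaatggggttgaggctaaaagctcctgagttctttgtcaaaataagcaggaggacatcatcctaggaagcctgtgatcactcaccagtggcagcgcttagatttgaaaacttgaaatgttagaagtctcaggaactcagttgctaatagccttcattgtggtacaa
Sema5b: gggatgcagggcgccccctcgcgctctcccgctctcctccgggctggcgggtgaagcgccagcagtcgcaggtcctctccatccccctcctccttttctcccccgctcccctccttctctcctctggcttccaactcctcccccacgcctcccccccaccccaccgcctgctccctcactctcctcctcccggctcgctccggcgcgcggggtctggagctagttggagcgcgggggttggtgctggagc
Sema7a: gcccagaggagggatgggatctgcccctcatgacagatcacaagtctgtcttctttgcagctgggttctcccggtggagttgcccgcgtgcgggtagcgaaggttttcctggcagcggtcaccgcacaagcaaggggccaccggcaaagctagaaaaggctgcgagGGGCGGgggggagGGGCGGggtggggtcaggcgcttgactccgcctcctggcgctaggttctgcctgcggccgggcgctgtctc
Unc5b: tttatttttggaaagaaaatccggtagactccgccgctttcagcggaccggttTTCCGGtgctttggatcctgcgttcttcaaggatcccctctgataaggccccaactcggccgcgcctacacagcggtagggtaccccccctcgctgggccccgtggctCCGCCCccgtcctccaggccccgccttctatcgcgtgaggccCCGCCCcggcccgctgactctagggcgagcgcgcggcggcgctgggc
Plxnb2, inner start: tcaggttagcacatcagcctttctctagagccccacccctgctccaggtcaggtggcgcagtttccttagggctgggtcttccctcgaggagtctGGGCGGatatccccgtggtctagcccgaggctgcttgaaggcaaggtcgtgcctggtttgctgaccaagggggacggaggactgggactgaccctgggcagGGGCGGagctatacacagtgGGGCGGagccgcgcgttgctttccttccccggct
Plxnb2, outer start: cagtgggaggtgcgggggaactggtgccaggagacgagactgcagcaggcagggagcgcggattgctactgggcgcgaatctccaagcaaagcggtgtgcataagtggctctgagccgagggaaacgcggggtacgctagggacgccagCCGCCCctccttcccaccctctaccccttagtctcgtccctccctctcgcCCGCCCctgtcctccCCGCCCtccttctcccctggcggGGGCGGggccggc

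The motifs searched on both strands were the E-box CACGTG, the hypoxia core ACGTG, which every E-box contains, the GC box GGGCGG, the AP-1 site TGANTCA, the ETS site CCGGAA and the TATA box TATAAA. Over the 32851 windows of the same length in the RefSeq table they were held by 6.02%, 16.6%, 32.7%, 6.75%, 12% and 12.4%. Sema3a and Sema5b held none of these letters, and their GC contents of 40.8% and 72% lay on either side of the median window at 52.4%. Sema7a held 2 GC boxes, the nearer 65 bases before the start, and Unc5b held 2 GC boxes and 1 ETS match. For Plxnb2 the inner window held 3 GC boxes and the outer one 4. The GC box was the only searched motif found in more than 1 of these 5 genes; a match is a description of letters, not of a bound factor.

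The first comparison, metastatic IgG against healthy IgG, addresses which guidance genes of lung ECs differ when metastases grow. In all, 10 genes passed (limma with Benjamini-Hochberg adjustment over all 18193 genes, adjusted p under 0.05). Sema3a, Sema5b, Sema3d, Unc5b, Plxnb2 and Sema7a rose, and Plxna1, Efnb1, Plxnb3 and Sema3g fell. These 10 of 67 are 14.9%, beside 6.53% of all genes, and the 6 that rose and 4 that fell stand beside 3.93% and 2.6% of all genes. An unadjusted p under 0.05 was found for 24 of the 67, beside 21.3% of all genes. The 3 metastatic arrays lay wholly apart from the 3 healthy ones in 31 of the 67 (46.3%, beside 27.6% of all genes), 16 of them higher (13% of all genes) and 15 lower (14.7% of all genes), and the median change was -0.05, beside -0.02 over all genes. The RNA is bulk RNA of a sorted gate, so a change in the share of an EC subtype and a change per cell cannot be told apart.

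**Figure D1:**
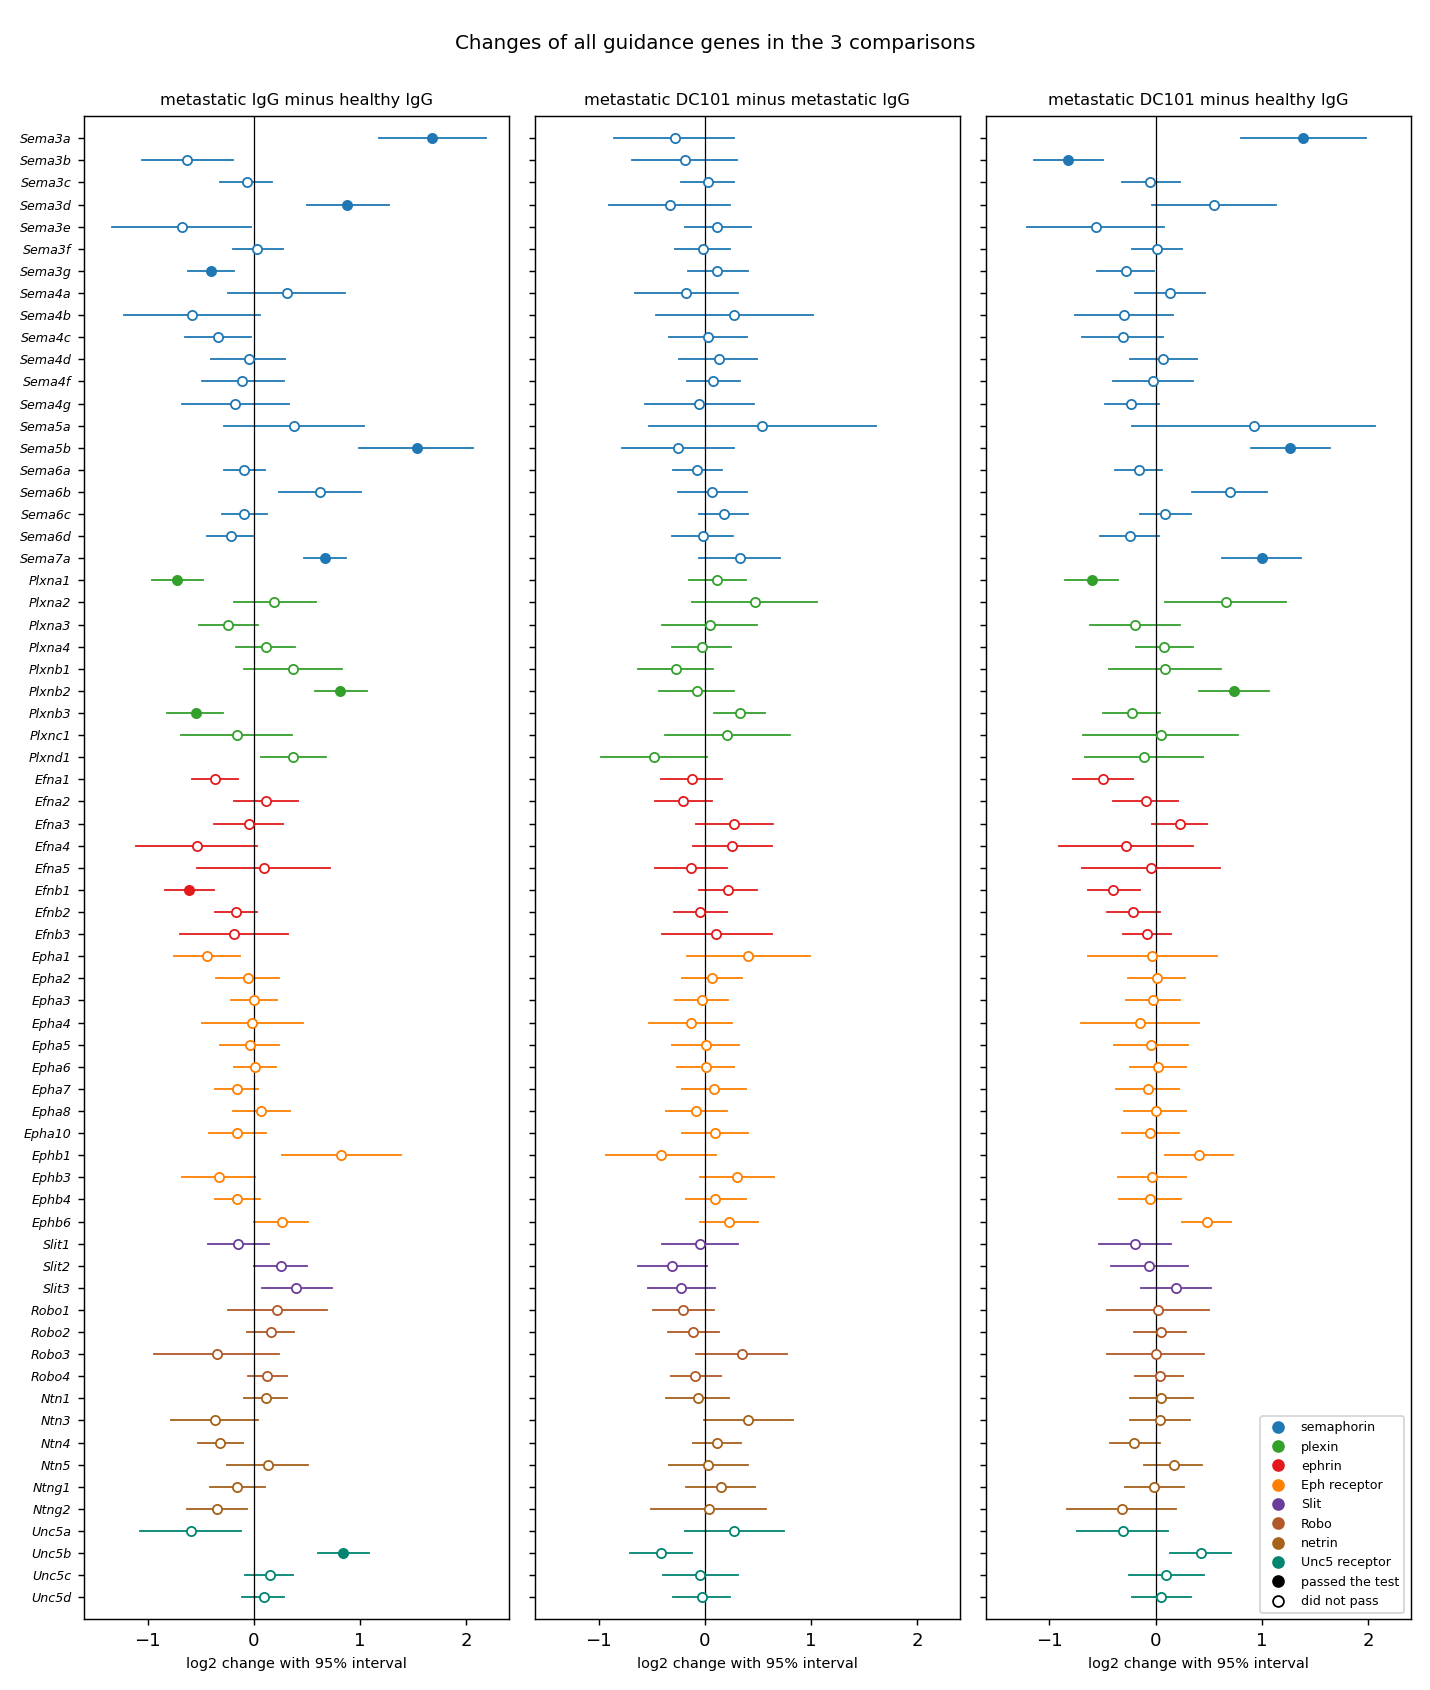
Log2 change of each of the 67 guidance genes (rows, coloured by family) in metastatic IgG over healthy IgG, metastatic DC101 over metastatic IgG and metastatic DC101 over healthy IgG ECs (panels), with 95% intervals from limma; filled points passed at an adjusted p under 0.05. There are 10 filled points in the first panel, none in the second and 6 in the third, and semaphorins and plexins make up 8 of the 10 and all 6.

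Among the secreted ligands, Sema3a showed the largest change of any guidance gene. It encodes semaphorin 3A, which binds neuropilin-1 with a class A plexin and restrains EC migration. Sema3a was 10.61, 10.89 and 10.30 on the metastatic IgG arrays and 8.64, 9.30 and 8.83 on the healthy arrays. The lowest metastatic array was well above the highest healthy one, and the fitted change was 1.68 ± 0.21 (SE), 3.2-fold (adjusted p = 0.00627). The other 2 probe sets of the gene changed by 1.46 and 0.69.

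Sema3d, whose product guides pulmonary vein patterning in the mouse embryo, read 7.73, 7.66 and 8.07 in metastatic IgG ECs and 7.18, 6.69 and 6.94 in healthy ECs. The groups did not overlap, and Sema3d rose by 0.88 ± 0.16, 1.84-fold (adjusted p = 0.024), though its second probe set changed by only 0.20. All these Sema3d values lay below the median gene mean of 9.03. The healthy ones lay around the mean of 5 lymphocyte markers in healthy ECs, 6.88 to 7.07, in a strain without functional T or B cells. In RefSeq order Sema3d and Sema3a are direct neighbours on chromosome 5. Sema3e, with 3 protein-coding genes between it and Sema3a, had a change of -0.68 that did not pass (adjusted p = 0.218). The dimmer probe sets of Sema3e changed by -0.33, -0.85 and -0.49, each without overlap between the groups. The Sema3d call was lost without metastatic IgG replicate 1 (adjusted p = 0.0598), metastatic IgG replicate 3 (0.0682), healthy replicate 2 (0.0642) or healthy replicate 3 (0.0663). It was also lost with the mean of both probe sets (change 0.54, adjusted p = 0.113), with all 9 arrays in one fit (0.0636) and without variance moderation (0.118).

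Sema3g, an artery-enriched semaphorin that binds neuropilin-2, went the other way. Its values were 13.11, 12.92 and 12.99 in metastatic IgG ECs against 13.43, 13.43 and 13.36 in healthy ECs. The drop was narrow, at -0.40 ± 0.09, 1.32-fold lower (adjusted p = 0.0476), and the call was lost whichever array of either group was left out (adjusted p = 0.068 to 0.136). Sema3b, a secreted ligand of neuropilins, had 8.52, 8.54 and 9.16 in metastatic IgG ECs and 9.39, 9.32 and 9.38 in healthy ECs. All metastatic arrays were lower, but replicate 3 lay close to the healthy range and the change of -0.63 did not pass (adjusted p = 0.0949). Without that array it was -0.84 and passed (adjusted p = 0.0125). The dimmer probe sets of Sema3b changed by only -0.18 and -0.32, each with overlap between the groups.

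Sema3c, the brightest semaphorin, had 13.69, 13.63 and 13.77 in metastatic IgG ECs and 13.70, 13.93 and 13.68 in healthy ECs. Its product acts through neuropilins and plexin D1 in the developing outflow tract. The change of -0.07 had a 95% interval of -0.32 to 0.17, and the groups overlapped. Class 3 as a whole had 2 genes higher, 1 lower and 4 not passing.

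Most lymphatic EC markers moved with Sema3a and Sema3d. Prox1, the transcription factor that defines lymphatic ECs, was 9.42, 9.75 and 9.99 in metastatic IgG ECs and 7.76, 8.05 and 6.41 in healthy ECs, a change of 2.31 (adjusted p = 0.0208). Of 6 lymphatic markers, 3 rose (Prox1, Reln and Mmrn1), none passed as lower, and the list's median change was 1.15. Lyve1 went the other way, with all metastatic arrays lower, but its change of -0.20 did not pass (adjusted p = 0.28). All 5 markers of dividing cells rose as well. The part of either in the semaphorin changes was not tested.

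Of the membrane-bound semaphorins, Sema5b and Sema7a rose. Sema5b, a transmembrane protein with thrombospondin repeats, had 9.85, 9.76 and 9.05 in metastatic IgG ECs and 8.19, 8.10 and 7.79 in healthy ECs. Replicate 3 was the lowest metastatic array and still lay above every healthy array, and the change was 1.53 ± 0.23, 2.88-fold (adjusted p = 0.0112). A dimmer second probe set of Sema5b changed by 0.49.

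Sema7a encodes a semaphorin held by a lipid anchor that signals through integrin beta-1 and plexin C1. It read 12.15, 12.28 and 12.27 in metastatic IgG ECs and 11.58, 11.55 and 11.56 in healthy ECs. Both groups were tight, with SDs of 0.07 and 0.02, so a change of 0.67 ± 0.08, 1.59-fold, was many times the spread between arrays (adjusted p = 0.00646). The second probe set of Sema7a changed by 0.86. Of its receptors, Itgb1 changed by 0.43 (adjusted p = 0.0731) and Plxnc1 by -0.16 (adjusted p = 0.731), neither passing.

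No class 4 gene passed among 6 and no class 6 gene among 4. Sema6b, a ligand of class A plexins, came nearest, with 10.19, 10.14 and 9.81 in metastatic IgG ECs and 9.67, 9.45 and 9.15 in healthy ECs. The groups were apart by a small gap, and the change of 0.62 had an adjusted p of 0.0749. Sema6d, another class 6 gene, changed by -0.22 on its brightest probe set and did not pass (adjusted p = 0.215). Its dimmer probe sets changed by -0.49, -0.54 and -0.72, and all 4 were lower in metastatic IgG ECs without overlap. Sema4b, a transmembrane semaphorin, had 8.77, 8.75 and 7.74 in metastatic IgG ECs and 9.04, 9.05 and 8.91 in healthy ECs. Here replicate 3 alone stood far below the rest, and the change of -0.58 ± 0.27 did not pass (adjusted p = 0.283).

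**Figure D2:**
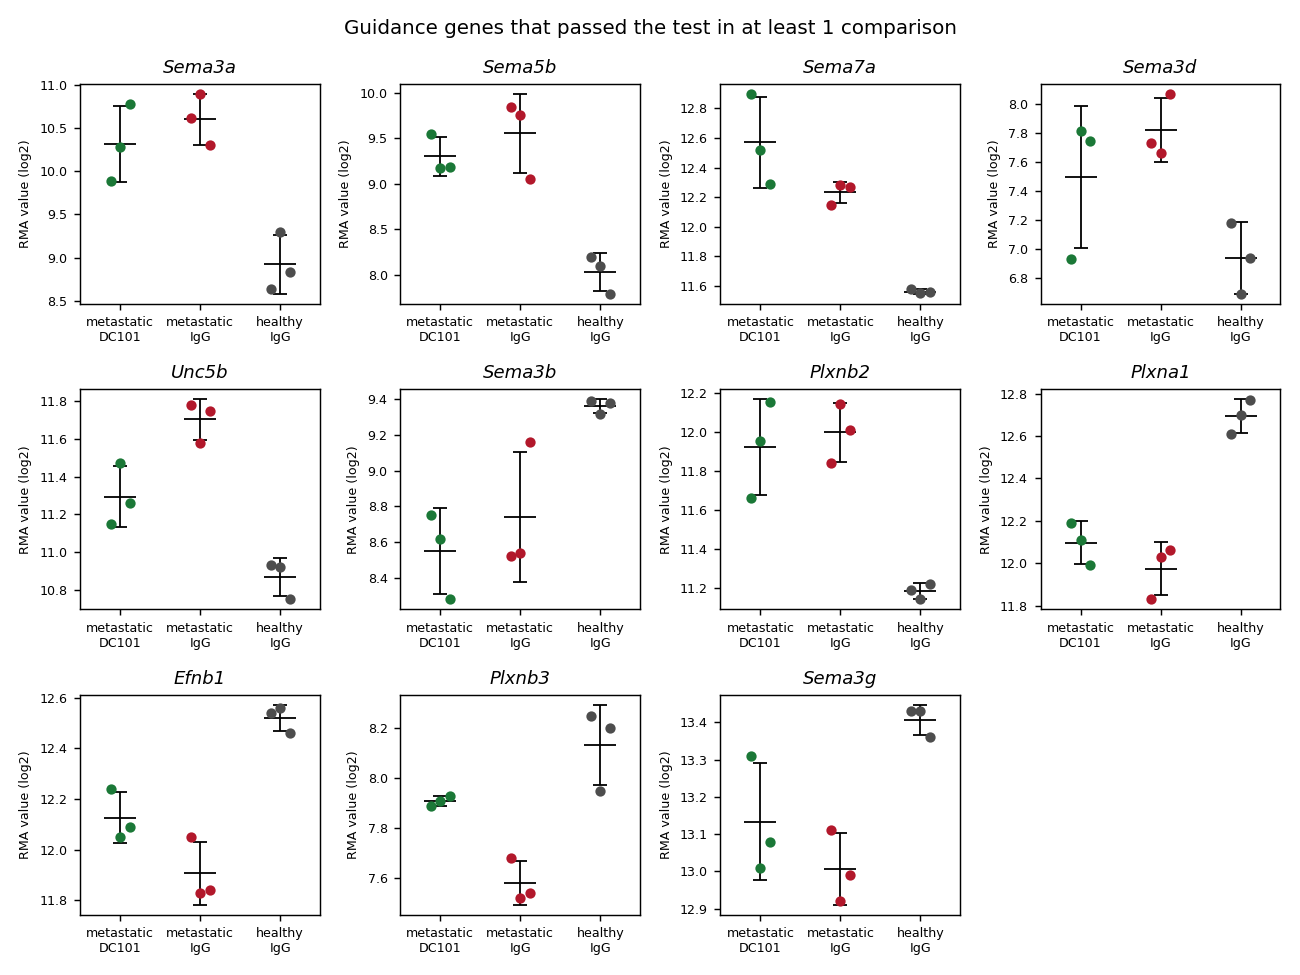
Normalized log2 value of each array (points), with group mean and SD (bars), for the 11 guidance genes that passed in at least 1 comparison, in metastatic DC101, metastatic IgG and healthy IgG ECs from left to right; each panel has its own scale, which does not start at 0. For Sema3a the healthy arrays reach 9.30 at most and the lowest metastatic array of either treatment is at 9.89.

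Among the receptors of semaphorins, 1 plexin rose and 2 fell. Plxnb2 encodes plexin B2, a receptor of class 4 semaphorins that also binds angiogenin. It had 11.84, 12.14 and 12.01 in metastatic IgG ECs and 11.19, 11.14 and 11.22 in healthy ECs. The healthy arrays were tightly grouped below all metastatic ones, and Plxnb2 rose by 0.81 ± 0.10, 1.76-fold (adjusted p = 0.00665).

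Plxna1, the class A plexin that pairs with neuropilin-1 to receive semaphorin 3A, fell. Its values were 11.83, 12.03 and 12.06 in metastatic IgG ECs and 12.61, 12.70 and 12.77 in healthy ECs. The groups stood well apart, with a change of -0.72 ± 0.10, 1.65-fold lower (adjusted p = 0.00908), and a second probe set changed by -1.0. Plxna1 passed whichever array was left out (adjusted p = 0.0275 to 0.0364). Nrp1, the co-receptor itself, was 13.62 ± 0.07 in metastatic IgG and 13.69 ± 0.06 in healthy ECs (SD, n = 3 each), a change of -0.07 (95% interval -0.28 to 0.13).

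Plxnb3, a receptor of semaphorin 5A, had 7.68, 7.52 and 7.54 in metastatic IgG ECs and 8.25, 7.95 and 8.20 in healthy ECs. It fell by 0.55 on the log2 scale (SE 0.11, 1.47-fold lower, adjusted p = 0.0325). All these Plxnb3 values lay below the median gene mean of 9.03. The call was lost without metastatic IgG replicate 1 (0.0608), 2 (0.1) or 3 (0.0991) or healthy replicate 1 (0.107) or 3 (0.0932). When probe sets designed to match several transcripts were left out, another one stood for Plxnb3 and the change was -0.24 (adjusted p = 0.232).

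Plxnd1 encodes the EC receptor of semaphorin 3E and was 11.38, 11.47 and 11.45 in metastatic IgG ECs against 11.30, 11.05 and 10.83 in healthy ECs. The arrays did not overlap, but the change of 0.37 did not pass (adjusted p = 0.154). Plxna2, the brightest plexin and a receptor of semaphorin 6A, had 11.97, 12.16 and 12.49 in metastatic IgG ECs and 12.07, 11.78 and 12.18 in healthy ECs, which overlap.

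Of 8 ephrins, 1 fell and none rose. Efnb1, a transmembrane ligand of EphB receptors, had 12.05, 11.83 and 11.84 in metastatic IgG ECs and 12.54, 12.56 and 12.46 in healthy ECs. Every metastatic array was lower than every healthy one, and the change was -0.61 ± 0.10, 1.53-fold lower (adjusted p = 0.0145). The other 2 probe sets changed by -0.78 and -0.51. The call was just lost without metastatic IgG replicate 2 (adjusted p = 0.0511) or 3 (0.0556) or healthy replicate 1 (0.0579) or 2 (0.0533), while the change stayed between -0.69 and -0.58 in all 6 such fits.

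Efna1, a lipid-anchored ligand of EphA receptors, read 12.28, 12.39 and 12.26 in metastatic IgG ECs and 12.76, 12.65 and 12.61 in healthy ECs. All metastatic arrays were lower, with a change of -0.37 that did not pass (adjusted p = 0.0614). Efna1, Efna3 and Efna4 are direct neighbours on chromosome 3, and Efna3 and Efna4 had changes of -0.05 and -0.54, neither passing.

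Efnb2, the arterial ephrin, depended on the probe set. The brightest one gave 13.37, 13.34 and 13.42 in metastatic IgG ECs and 13.47, 13.57 and 13.60 in healthy ECs, a change of -0.17 (adjusted p = 0.313). The 3 dimmer probe sets of Efnb2 changed by -0.67, -0.40 and -0.62, each without overlap between the groups, and with the mean of all 4 the change was -0.47 and passed (adjusted p = 0.0249). The mean of 7 arterial markers, a list that holds Efnb2 itself, was 11.70 to 11.77 in metastatic IgG and 11.83 to 11.90 in healthy ECs, and the part of this list in the Efnb2 values was not tested.

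None of the 13 Eph receptors passed, and 3 had an unadjusted p under 0.05. Ephb1, a receptor tyrosine kinase, had 9.32, 9.43 and 8.57 in metastatic IgG ECs and 8.29, 8.50 and 8.07 in healthy ECs. Metastatic replicates 1 and 2 were high and replicate 3 lay just above the healthy range, with a change of 0.82 (adjusted p = 0.0989); without that array Ephb1 changed by 1.09 and passed (adjusted p = 0.0238). Epha1 was 9.30, 9.43 and 9.52 in metastatic IgG ECs and 10.02, 9.94 and 9.61 in healthy ECs, a change of -0.44 (adjusted p = 0.107). Epha1 is an epithelial Eph receptor, and 4 of 8 lung epithelial markers fell in the same comparison while none passed as higher. In that list Krt8 changed by 0.70, Scgb1a1 by 0.79 and Epcam by -0.01, none passing (adjusted p = 0.0682, 0.755 and 0.969). The mean of the 8 was 8.95 to 9.20 in metastatic IgG and 9.40 to 10.17 in healthy ECs. The part of this list in the Epha1 values was not tested.

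The venous receptor Ephb4, the brightest Eph receptor, overlapped between the groups. It had 12.62, 12.51 and 12.52 in metastatic IgG ECs and 12.62, 12.71 and 12.80 in healthy ECs, a difference of -0.16 with a 95% interval of -0.37 to 0.06. The A receptors had a median change of -0.04 over 9 genes and the B receptors one of 0.05 over 4.

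Among Slits and Robos no gene passed. The ligand Slit3 was 10.16, 10.50 and 10.29 in metastatic IgG ECs and 9.77, 10.13 and 9.85 in healthy ECs, with the nearest arrays almost touching (change 0.40, adjusted p = 0.145). Slit2, the other vascular Slit, had 10.24, 10.23 and 10.21 in metastatic IgG ECs and 10.09, 10.05 and 9.79 in healthy ECs, and its change of 0.25 did not pass either (adjusted p = 0.241). Robo4, the EC member of the Robo receptors, was nearly constant within each group, at 13.19, 13.19 and 13.18 in metastatic IgG ECs and 13.06, 13.08 and 13.05 in healthy ECs. The metastatic arrays were all higher, by 0.12 on average, and the adjusted p was 0.44.

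Of the netrin receptors, Unc5b rose. Its product receives netrins, also binds Robo4, and is enriched in arterial and sprouting ECs. Unc5b had 11.78, 11.58 and 11.75 in metastatic IgG ECs and 10.93, 10.92 and 10.75 in healthy ECs. The groups stood well apart, and the change was 0.84 ± 0.10, 1.79-fold (adjusted p = 0.0055, the lowest of the 67 genes). The second probe set changed by 0.36. Of the other Unc5 receptors none passed.

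The netrins themselves did not pass. Ntn4, a netrin of basement membranes that binds laminin, had 12.49, 12.49 and 12.58 in metastatic IgG ECs and 12.91, 12.86 and 12.74 in healthy ECs, without overlap (change -0.32, adjusted p = 0.095). Ntn1, the ligand of Unc5b, was 12.77, 12.87 and 12.83 in metastatic IgG ECs and 12.77, 12.70 and 12.67 in healthy ECs. Its change of 0.11 had a 95% interval of -0.09 to 0.31.

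**Figure D3:**
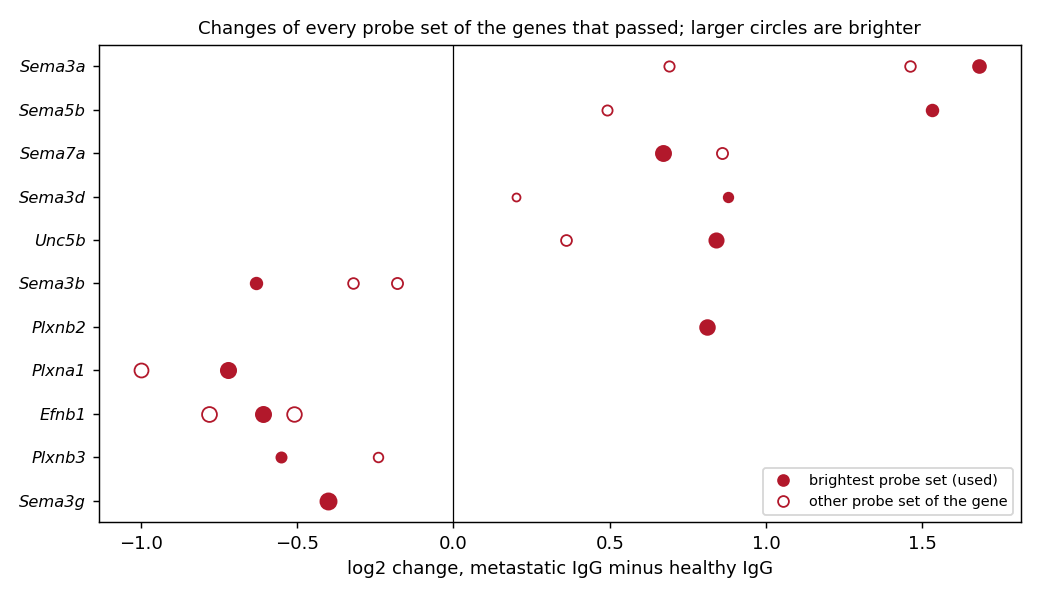
Log2 change in metastatic IgG over healthy IgG ECs (x axis) for every probe set of the 11 guidance genes that passed in at least 1 comparison (rows); filled circles are the brightest probe set, which was used, open circles the others, and larger circles are brighter. All probe sets of a gene lie on the same side of 0, and the spread is widest for Sema5b (1.53 and 0.49) and Sema3a (1.68, 1.46 and 0.69).

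Co-receptors and intracellular partners of these families were read from 3 lists with 69 measured genes. In metastatic IgG over healthy ECs 5 rose and 2 fell, which is 10.1%, beside 6.53% of all genes. Among 25 semaphorin and plexin partners, Nrp2 and Dpysl3 rose and Dpysl5 fell. Among 21 Eph and ephrin partners, Tiam1 and Pdlim1 rose, and among 23 Slit-Robo and netrin partners Srgap3 rose and Rgmb fell.

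Nrp2, the co-receptor of several class 3 semaphorins that is found on veins and lymphatics, was 12.32, 12.22 and 12.17 in metastatic IgG ECs and 10.88, 10.65 and 10.41 in healthy ECs. No array came near the other group, and Nrp2 rose by 1.59 on the log2 scale (adjusted p = 0.00141). Most of the lymphatic markers given above moved with it, and their part was not tested. Tiam1, an exchange factor for the GTPase Rac, had 11.42, 11.46 and 11.60 in metastatic IgG ECs and a wide 9.03, 9.81 and 7.83 in healthy ECs (change 2.60, adjusted p = 0.0188).

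The collapsin response mediators, cytoplasmic proteins first known from semaphorin 3A signaling, split. Dpysl5 was 9.76, 9.67 and 9.84 in metastatic IgG ECs and 11.54, 11.32 and 11.33 in healthy ECs, a change of -1.64 (adjusted p = 5e-04). Dpysl3 was 13.13, 13.02 and 13 in metastatic IgG ECs and 11.83, 12.02 and 12.31 in healthy ECs, a change of 1.0 (adjusted p = 0.00816). Another member, Crmp1, changed by 0.68 and did not pass (adjusted p = 0.0545). Smaller changes passed for Pdlim1, a LIM protein of the actin cytoskeleton (0.49, adjusted p = 0.0183), Srgap3, a GTPase-activating protein that binds Robo (0.62, adjusted p = 0.0224), and Rgmb, a ligand of neogenin (-0.52, adjusted p = 0.024). Rnd1, a small GTPase that binds plexins, changed by 1.0 and Met, a receptor tyrosine kinase that associates with plexins, by 0.65, neither passing (adjusted p = 0.1 and 0.415).

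In the second comparison, metastatic DC101 against healthy IgG, the question is which guidance genes still differ from healthy ECs under blockade of VEGF receptor 2. By limma with Benjamini-Hochberg adjustment 6 passed: Sema3a, Sema5b, Sema7a and Plxnb2 rose, and Sema3b and Plxna1 fell. These 6 of 67 are 8.96%, beside 2.42% of all genes (1.58% higher and 0.835% lower). Arrays did not overlap for 21 genes (31.3%, beside 23.1% of all genes), 10 higher (9.44% of all genes) and 11 lower (13.6% of all genes), and 14 had an unadjusted p under 0.05 (17% of all genes). Both comparisons use the same 3 healthy arrays, so they are not independent of each other.

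Sema3a was 9.89, 10.28 and 10.77 on the DC101 arrays, against 8.64, 9.30 and 8.83 on the healthy arrays. No DC101 array reached down to the healthy ones, and Sema3a rose by 1.39 ± 0.25, 2.63-fold (adjusted p = 0.0385). The call was lost without DC101 replicate 2 (adjusted p = 0.0956) or 3 (0.0738) or healthy replicate 1 (0.139), 2 (0.057) or 3 (0.114), with changes of 1.17 to 1.60 over the 6 fits. None of the 6 lymphatic markers passed in this comparison, and their median change was 0.92. Prox1 was 9.20, 8.28 and 10.10 on the same DC101 arrays (change 1.79, adjusted p = 0.159), and its part in the Sema3a values was not tested.

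Sema5b had 9.55, 9.17 and 9.19 in DC101 ECs and 8.19, 8.10 and 7.79 in healthy ECs. No array of either group came near the other, and Sema5b rose by 1.27 ± 0.16, 2.42-fold (adjusted p = 0.0107). It was the only one of the 6 genes to pass whichever array was left out (adjusted p = 0.0245 to 0.042).

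For Sema7a the DC101 arrays read 12.90, 12.52 and 12.29, against 11.58, 11.55 and 11.56 in healthy ECs. DC101 replicate 1 was the highest of all 9 arrays, and the change was 1.0 ± 0.16, 2-fold (adjusted p = 0.0261). The call was lost without DC101 replicate 2 (0.0688) or healthy replicate 1 (0.101), 2 (0.0902) or 3 (0.0866).

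Plxnb2 had 11.66, 11.95 and 12.15 in DC101 ECs and 11.19, 11.14 and 11.22 in healthy ECs. All DC101 arrays were higher, with a change of 0.74 ± 0.14, 1.67-fold (adjusted p = 0.0443). This call was lost without DC101 replicate 2 (0.103) or 3 (0.0817) or healthy replicate 1 (0.15), 2 (0.145) or 3 (0.117). Plxna1 had 12.19, 12.11 and 11.99 in DC101 ECs and 12.61, 12.70 and 12.77 in healthy ECs. It was 1.51-fold lower, at -0.60 ± 0.11 (adjusted p = 0.0375), and the call was lost whichever array was left out (adjusted p = 0.075 to 0.128).

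Sema3b was 8.75, 8.62 and 8.28 in DC101 ECs and 9.39, 9.32 and 9.38 in healthy ECs. The groups were clearly apart on this probe set, and Sema3b fell by 0.82 on the log2 scale (SE 0.14, 1.76-fold lower, adjusted p = 0.0324). The mean of its 3 probe sets changed by -0.41 and did not pass (adjusted p = 0.18). The call was also lost without DC101 replicate 2 (0.074) or healthy replicate 1 (0.126), 2 (0.0984) or 3 (0.102).

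The other genes that had passed in metastatic IgG ECs missed the test here. Unc5b was 11.15, 11.47 and 11.26 in DC101 ECs and 10.93, 10.92 and 10.75 in healthy ECs, a change of 0.43 without overlap that did not pass (adjusted p = 0.139). Efnb1, at 12.24, 12.05 and 12.09 in DC101 and 12.54, 12.56 and 12.46 in healthy ECs, changed by -0.40 (adjusted p = 0.115). For Sema3g, DC101 replicate 1 reached 13.31 while replicates 2 and 3 were at 13.01 and 13.08, against 13.36 to 13.43 in healthy ECs, and the change was -0.28 (adjusted p = 0.283).

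Sema3d and Plxnb3 also missed the test. Sema3d had 6.93, 7.81 and 7.74 in DC101 ECs, with replicate 1 inside the healthy range of 6.69 to 7.18 (change 0.55, adjusted p = 0.317). Plxnb3 had 7.89, 7.91 and 7.93 in DC101 ECs, just under the lowest healthy array at 7.95 (change -0.22, adjusted p = 0.382).

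Further genes had DC101 arrays apart from the healthy ones without passing. Ephb6, an Eph receptor without kinase activity, had 7.10, 7.02 and 7.06 in DC101 ECs and 6.55, 6.66 and 6.53 in healthy ECs, a change of 0.48 that came nearest to the threshold (adjusted p = 0.0567). All these Ephb6 values lay below the median gene mean of 9.03. Sema6b was 10.21, 9.98 and 10.17 in DC101 ECs and 9.67, 9.45 and 9.15 in healthy ECs (change 0.70, adjusted p = 0.0715). Efna1 was 12.15, 12.03 and 12.37 in DC101 ECs and 12.76, 12.65 and 12.61 in healthy ECs (change -0.49, adjusted p = 0.1). None of the 3 had a DC101 array inside the healthy range.

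Ephb1 had 8.61, 8.78 and 8.70 in DC101 ECs and 8.29, 8.50 and 8.07 in healthy ECs (change 0.41, adjusted p = 0.188). Plxna2 had 13.24, 12.42 and 12.37 in DC101 ECs and 12.07, 11.78 and 12.18 in healthy ECs; DC101 replicate 1 stood alone at the top, and the change of 0.66 did not pass (adjusted p = 0.23). Of the 69 partners 1 passed, which is 1.45%, beside 2.42% of all genes. It was Nrp2, at 11.81, 12.07 and 11.97 in DC101 ECs against 10.88, 10.65 and 10.41 in healthy ECs, a rise of 1.30 (adjusted p = 0.00748).

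A last comparison, metastatic DC101 against metastatic IgG, sets blockade of VEGF receptor 2 against control antibody in metastatic lungs. No guidance gene passed in limma with Benjamini-Hochberg adjustment, and neither did any of the 18193 genes (0%). The lowest adjusted p among the 67 was 0.737, and 2 of them, Unc5b and Plxnb3, had an unadjusted p under 0.05, beside 6.65% of all genes. The count stayed at 0 in every alternative fit, the ordinary linear model without moderation and limma-trend included. Arrays did not overlap for 9 genes (13.4%, beside 12.4% of all genes), 6 higher under DC101 (5.4% of all genes) and 3 lower (6.95% of all genes), and the median absolute change of 0.12 equalled that of all genes.

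Unc5b had 11.15, 11.47 and 11.26 in DC101 ECs and 11.78, 11.58 and 11.75 in metastatic IgG ECs. Every DC101 array lay below every metastatic IgG array and above every healthy one, and the change was -0.41 ± 0.12 (95% interval -0.70 to -0.12, adjusted p = 0.737). Plxnb3 was likewise between the other groups, at 7.89, 7.91 and 7.93 in DC101 ECs and 7.68, 7.52 and 7.54 in metastatic IgG ECs, a change of 0.33 (95% interval 0.09 to 0.57, adjusted p = 0.741). Efnb1, at 12.24, 12.05 and 12.09 in DC101 ECs and 12.05, 11.83 and 11.84 in metastatic IgG ECs, had its nearest arrays equal to 2 decimals (change 0.22, adjusted p = 0.765).

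Sema7a differed from these genes in its order, since its DC101 arrays were the farthest from healthy ones, as were those of Ephb6. It had 12.90, 12.52 and 12.29 in DC101 ECs and 12.15, 12.28 and 12.27 in metastatic IgG ECs, a change of 0.33 (95% interval -0.05 to 0.71, adjusted p = 0.76). DC101 replicate 3 was barely above the highest metastatic IgG array, and the second probe set of Sema7a changed by 0.15, with overlap. Slit2 had 9.96, 10.14 and 9.66 in DC101 ECs and 10.24, 10.23 and 10.21 in metastatic IgG ECs (change -0.31, 95% interval -0.63 to 0.02, adjusted p = 0.75).

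**Figure D4:**
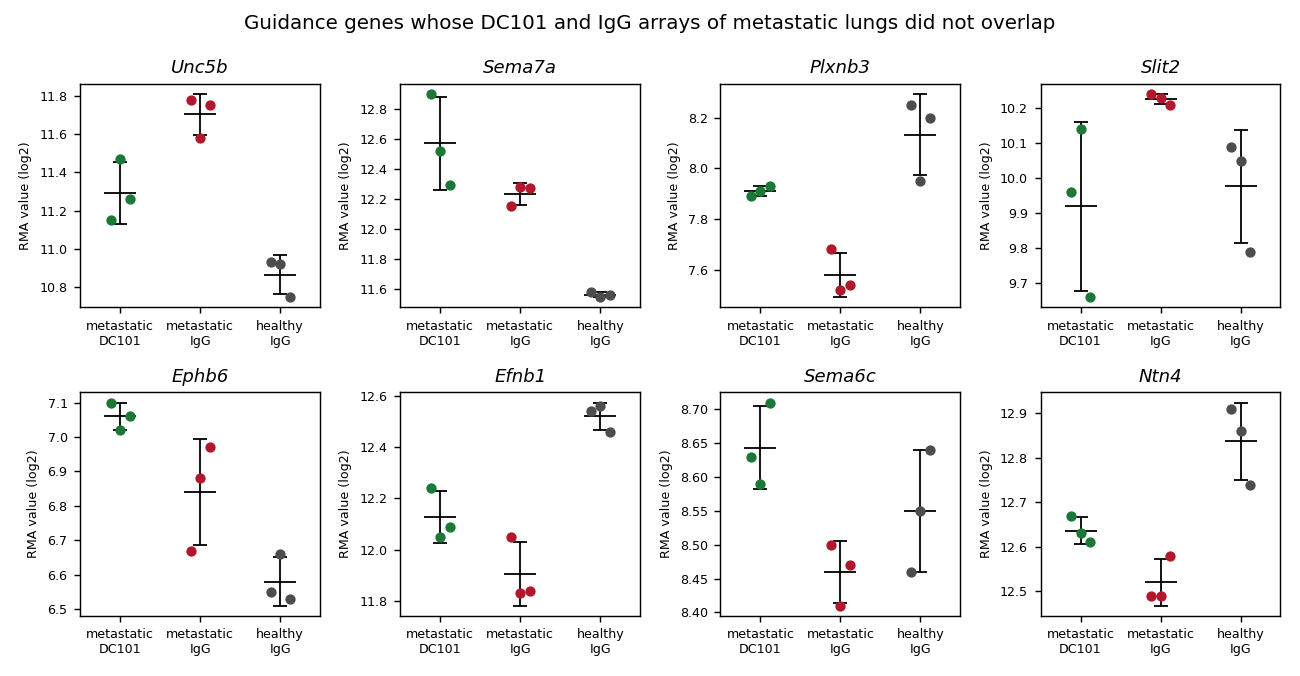
Normalized log2 value of each array (points), with group mean and SD (bars), for 8 of the 9 guidance genes whose metastatic DC101 and metastatic IgG arrays did not overlap, in metastatic DC101, metastatic IgG and healthy IgG ECs from left to right; each panel has its own scale, which does not start at 0. None of the differences between the first pair of groups passed; for Unc5b the DC101 mean of 11.29 lies between 11.70 in metastatic IgG and 10.87 in healthy ECs.

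The remaining genes without overlap did not pass either. Ephb6 was 7.10, 7.02 and 7.06 in DC101 ECs and 6.67, 6.88 and 6.97 in metastatic IgG ECs (change 0.23, adjusted p = 0.762). Sema6c, a transmembrane semaphorin, was 8.63, 8.59 and 8.71 in DC101 ECs and 8.50, 8.41 and 8.47 in metastatic IgG ECs (change 0.18, adjusted p = 0.765). Either gene was higher in all DC101 arrays. Ntn4 had 12.67, 12.63 and 12.61 in DC101 ECs and 12.49, 12.49 and 12.58 in metastatic IgG ECs (change 0.12, adjusted p = 0.835). Robo4 was the ninth such gene, at 13.01, 13.13 and 13.15 in DC101 ECs and 13.19, 13.19 and 13.18 in metastatic IgG ECs (change -0.09, adjusted p = 0.886).

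For other genes that had passed against healthy ECs, the arrays of the metastatic groups overlapped. Sema3a differed by -0.28 (95% interval -0.85 to 0.28), and by 0.05 with the mean of its 3 probe sets. Sema5b differed by -0.25 (-0.78 to 0.28), Plxnb2 by -0.07 (-0.43 to 0.28) and Plxna1 by 0.12 (-0.15 to 0.39). Each interval includes differences in both directions. Sema5a, which had not passed against healthy ECs, had the largest change of the 67 genes, 0.54 (95% interval -0.52 to 1.61, adjusted p = 0.836). It had 11.96, 10.15 and 11.79 in DC101 ECs and 10.48, 10.67 and 11.11 in metastatic IgG ECs. The other Sema5a probe sets changed by 1.09, 0.83 and 0.33, each with overlap. Plxna2 differed by 0.47 (95% interval -0.12 to 1.06, adjusted p = 0.765), also with overlap. Plxnd1, whose DC101 arrays ran wide at 10.58, 10.82 and 11.46 against 11.38, 11.47 and 11.45 in metastatic IgG ECs, differed by -0.48 (95% interval -0.98 to 0.02, adjusted p = 0.745). Epha1 ran just as wide, at 9.77, 9.32 and 10.38 in DC101 ECs and 9.30, 9.43 and 9.52 in metastatic IgG ECs. The mean of the lung epithelial markers was 9.52, 10.07 and 8.87 on the same DC101 arrays, and its part was not tested. The guidance genes had a median SD of 0.158 in DC101, 0.124 in metastatic IgG and 0.126 in healthy ECs, and all genes had 0.171, 0.139 and 0.135.

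No partner passed in this comparison either, with 7 of 69 at an unadjusted p under 0.05, beside 6.65% of all genes. Arrays did not overlap for 10 of the 69 (14.5%, beside 12.4% of all genes). Dpysl5 was 10.92, 10.25 and 11.11 in DC101 ECs and 9.76, 9.67 and 9.84 in metastatic IgG ECs, so that all DC101 arrays lay toward the healthy values (change 1.01, 95% interval 0.50 to 1.51, adjusted p = 0.737). Tiam1 was 9.14, 11.13 and 10.50 in DC101 ECs and 11.42, 11.46 and 11.60 in metastatic IgG ECs (change -1.24, adjusted p = 0.741). DC101 replicate 1, which stood apart in the principal components, was the lowest DC101 array for Tiam1 and Sema3d and the highest for Sema7a and Plxna2.

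None of the brightest members of the remaining families passed. Sema3c was 13.81, 13.75 and 13.61 in DC101 ECs, a change of 0.03 from metastatic IgG ECs (95% interval -0.22 to 0.28), while its other probe set changed by 0.36 without overlap. Efnb2 was 13.24, 13.31 and 13.46 (change -0.04, 95% interval -0.29 to 0.21). As in the first comparison Efnb2 depended on the probe set: the other 3 changed by 0.26, 0.32 and 0.21, of which the second was without overlap, and the mean of all 4 changed by 0.19 (adjusted p = 0.841). Ephb4 was 12.57, 12.55 and 12.85 (change 0.10, 95% interval -0.18 to 0.39). Slit3 was 9.93, 10.17 and 10.22 and Ntn1 12.73, 12.59 and 12.97, with changes of -0.22 and -0.06 (adjusted p = 0.793 and 0.939). Sema4b, at 8.61, 8.36 and 9.14 in DC101 ECs, overlapped both other groups.

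Since no gene passed between DC101 and metastatic IgG ECs, a call against healthy ECs in 1 metastatic group and not in the other is not shown to differ between treatments. By family, semaphorins had 4 genes up and 1 down in metastatic IgG ECs and 3 up and 1 down in DC101 ECs, plexins 1 up and 2 down and then 1 up and 1 down. Ephrins and Unc5 receptors each had 1 gene passing in metastatic IgG and none in DC101 ECs, and Eph receptors, Slits, Robos and netrins had none in either.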

How the data were processed

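Sorted lung EC RNA was amplified with a 3′ IVT Pico kit and hybridised to Affymetrix Mouse Genome 430 arrays, 3 per group. The values deposited by the authors are log2 expression values per probe set and array: per the methods, the authors normalized the raw arrays by robust multiarray averaging, which equalises array distributions (medians 8.32 to 8.33 here) and so removes any shift common to all genes. The log base is that of this method. No detection calls were used, and precision is limited by having 3 arrays a group.

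Of 45101 probe sets, 34945 had 1 gene symbol in the platform annotation, 932 several and 9160 none; 64 were controls. Each of 18193 genes was read from its brightest probe set by mean over the 9 arrays. All 67 guidance genes matched RefSeq, and 58 had a promoter window. Each comparison was fitted on its 6 arrays with limma 3.58.1 in R 4.3.3 (lmFit, eBayes, two-sided), with Benjamini-Hochberg adjustment over all genes and a threshold of 0.05. The fit was tested on simulated data.

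Named are all genes that passed, up to 8 further genes per comparison whose arrays did not overlap, with the largest changes, and the brightest gene of each family. From the partner lists, genes that passed and up to 3 others with the largest changes are named. Robo4 in the DC101 comparison, Sema3e, Sema5a, Sema6d, Plxnc1, Efna3, Efna4, Nrp1 and Itgb1 were chosen after their values were seen. So were the markers Krt8, Scgb1a1, Epcam and Lyve1. Alternatives were other probe set rules, all 9 arrays in one fit, no moderation, limma-trend, bright genes only, a replicate block, arrays centred on their median and leaving out each array. The members, partner lists and marker lists were chosen with earlier results of these data known. Of the 14 marker lists, those with no counts in the text moved as follows in metastatic IgG over healthy ECs. In the pan-endothelial list 1 of 10 genes rose, 2 of 7 general capillary genes fell, and 1 of 5 aerocyte genes rose and 1 fell. Among venous genes 2 of 7 rose and 1 fell, 3 of 10 macrophage and monocyte genes rose, and 2 of 9 fibroblast and mural genes rose and 1 fell. Of erythrocyte and platelet genes 3 of 7 fell, 1 of 7 arterial genes fell, and no neutrophil (4), lymphocyte (5) or mesothelial (5) gene passed. In DC101 over healthy ECs, 5 dividing cell, 2 fibroblast and mural, 1 venous and 1 mesothelial gene rose. There 2 general capillary, 1 aerocyte, 1 arterial and 3 erythrocyte and platelet genes fell. No gene of the other lists passed in that comparison.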

Additional observations from a re-analysis of the deposited data

How the results depend on the processing

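Of 1146 alternative values of named genes, 1031 stayed on their side of the threshold with the same direction, 69 lost and 21 gained a call, and 25 changed sign, all of them for differences that did not pass under either setting. For metastatic IgG over healthy ECs the number of guidance genes passing was 10. It was 5 with no variance moderation (Plxna1, Plxnb2, Sema7a, Unc5b and Robo4, the last of which was not among the 10), 7 to 8 with 1 array left out, and 8 to 12 in the other alternatives. For metastatic DC101 over healthy ECs it was 6. It was 0 with no variance moderation (17 at an unadjusted p under 0.05), 1 to 5 with 1 array left out, and 4 to 9 in the others but the replicate block. For metastatic DC101 over metastatic IgG ECs it was 0 in all. Deviations of arrays with the same replicate number correlated at -0.05 to 0.08, so the numbers do not pair the samples; a replicate block gave 10, 0 and 3 passing genes for metastatic IgG over healthy, DC101 over metastatic IgG and DC101 over healthy ECs. Centring the arrays on their medians moved the median of all genes by 0.055 at most. With 3 arrays a group, changes of genes with wide arrays, such as Sema5a, Plxnc1 or Sema3e, are poorly bounded.

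The sign changes were as follows. With the mean of all probe sets, the change was 0.19 for Efnb2 and 0.05 for Sema3a in DC101 over metastatic IgG ECs, and -0.13 for Ntn1 and 0.07 for Sema3c in DC101 over healthy ECs. Without probe sets that can match several transcripts it was 0.08 for Epha1 in DC101 over healthy ECs, and with centred arrays 0.02 for Efnb2 in DC101 over metastatic IgG ECs. With 1 array left out, Sema3c ranged over -0.12 to 0.01 in metastatic IgG over healthy ECs. In DC101 over metastatic IgG ECs the ranges were -0.10 to 0.01 for Efnb2, -0.19 to 0.05 for Plxnb2, -0.01 to 0.08 for Sema3c, -0.17 to 0.03 for Ntn1, -0.30 to 0.02 for Sema3b, -0.06 to 0.46 for Sema4b and -0.05 to 0.14 for Sema6b. In DC101 over healthy ECs they were -0.05 to 0.14 for Ntn1, -0.09 to 0.03 for Sema3c, -0.31 to 0.22 for Epha1, -0.36 to 0.08 for Plxnd1, -0.15 to 0.00 for Ephb4 and -0.17 to 0.07 for Slit2. The cause of these changes was not tested.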
